A study of Homo sapiens with 2 samples.

Results

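The genes described here set how much RAS is in its active, GTP-bound state, or read that state out. They are the exchange factors SOS1, SOS2 and RASGRP1, the adaptor GRB2, the GTPase-activating proteins NF1, RASA1 and RASAL2, the RAS-binding proteins RASSF1 and RIN1, and the RAP exchange factor RAPGEF2. They were taken as a named list of 10 genes, and every probe set that the array annotation pairs with exactly 1 of these symbols was used. That gave 19 probe sets for 9 of the 10 genes, out of 19071 probe sets with exactly 1 gene symbol and 22283 in the table. RASA1 was paired with no probe set in the annotation used here and was not analysed. Another 8 probe sets list NF1 together with a pseudogene of it, and these were left out by the rule.

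RNA was measured on Affymetrix U133A arrays in 2 groups of 1 array each. The first was H6c7 cells given a K-ras oncogene, called the K-ras line. The second was the parental H6c7 line, a human pancreatic duct epithelial line known to have been immortalised with papillomavirus genes, which the K-ras line therefore carries too. The labels give neither the mutation nor the promoter of the introduced gene, nor whether the K-ras line is clonal, and no cells with an empty vector are named. With 1 array per line there is no replicate error and nothing could be tested, so the differences below are between these 2 RNA samples. The RNA came from whole cultures, so fewer cells with a transcript and less of it per cell cannot be told apart.

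RAS proteins act as switches: exchange factors load them with GTP, and GTPase-activating proteins speed the hydrolysis that turns them off. After a growth factor binds, GRB2 attaches to the phosphorylated receptor and brings SOS to the membrane, where RAS sits. The common oncogenic forms of RAS respond poorly to GTPase-activating proteins and stay active, which is frequent in pancreatic ductal carcinoma. Active RAS then binds effectors, among which are proteins of the RASSF and RIN families beside the better known RAF kinases.

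The table holds 1 linear intensity per probe set and array, and the trimmed means of the 2 columns were already equal as deposited, at 150.1 on the K-ras array and 150.1 on the parental array. The 25th percentile of signals was 15.0 on the K-ras array and 11.4 on the parental array, and the median was 46.9 on the K-ras array and 43.9 on the parental array. A signal of 46.9, the higher of these medians, served as the floor. A probe set below it on both arrays counted as not measured, and one below it on 1 array has a ratio taken against the floor, which is a bound and is written as "at least". The threshold for a difference was 2-fold. All 6 epithelial markers were above the floor on both arrays, with signals of 477 to 8606 on the K-ras array and 994 to 6622 on the parental array. Of these, KRT19 was 2.74-fold lower and EPCAM 2.08-fold lower in the K-ras line, and the others were under 2-fold. The 3′ to 5′ signal ratio, a sign of RNA integrity, was 0.888 on the K-ras array and 0.817 on the parental array for GAPDH, and 1.10 on the K-ras array and 1.28 on the parental array for ACTB.

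Of the 19 probe sets, 8 were measured, in 6 genes: 4 above the floor on both arrays and 4 as bounds. RASSF1 and RIN1, both RAS effectors, passed 2-fold as higher in the K-ras line. SOS1, in 1 of its 2 probe sets, and RAPGEF2 passed it as lower. GRB2 had a log2 ratio of 0.83, and the 2 measured SOS2 probe sets had ratios of opposite sign, all under 2-fold. Among all 11084 measured probe sets with 1 symbol, 10.1% passed 2-fold upward and 14.7% downward, against 2 of 8 each way among these genes. A set of 8 probe sets is too small to read a difference from those shares. The median log2 ratio of the 8, K-ras over parental, was -0.0041, against 0.07 over all measured probe sets. Among the other scalings, its sign turned with quantile normalization (0.0012) and with scaling on the 100 maintenance probe sets (0.09), which Affymetrix provides for normalization. With that scaling the median of all measured probe sets was 0.22, with 14.5% higher and 11.3% lower, and the split among the 8 became 3 higher and 1 lower. With median centring it became 1 higher and 2 lower, against 8.39% higher and 16.4% lower over all measured probe sets.

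The start regions of the 4 genes past 2-fold are shown first, so that the higher and the lower pair can be compared by sequence. Each is 300 bases, 250 before and 50 after a transcription start, from RefSeq (GRCh38.p14), written 5′ to 3′ along the gene. RASSF1 lies at chr3:50337401-50337700 on the minus strand, RIN1 at chr11:66336385-66336684 on the minus strand, SOS1 at chr2:39124819-39125118 on the minus strand and RAPGEF2 at chr4:159102829-159103128 on the plus strand. SOS1 has 2 starts in the table and RAPGEF2 has 3, and the most upstream one is given, which is the 5′ end of the annotated gene. The 1 start in the table lies 3386 bases inside the annotated gene for RASSF1 and 340 bases inside it for RIN1. Capitals mark matches to any of 7 motifs searched on both strands.
RASSF1: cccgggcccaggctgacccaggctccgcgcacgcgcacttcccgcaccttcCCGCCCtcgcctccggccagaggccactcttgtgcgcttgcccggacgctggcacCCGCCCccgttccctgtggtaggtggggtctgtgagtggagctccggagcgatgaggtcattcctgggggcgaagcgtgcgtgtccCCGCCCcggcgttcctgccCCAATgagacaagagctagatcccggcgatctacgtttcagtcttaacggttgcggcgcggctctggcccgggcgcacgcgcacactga
RIN1: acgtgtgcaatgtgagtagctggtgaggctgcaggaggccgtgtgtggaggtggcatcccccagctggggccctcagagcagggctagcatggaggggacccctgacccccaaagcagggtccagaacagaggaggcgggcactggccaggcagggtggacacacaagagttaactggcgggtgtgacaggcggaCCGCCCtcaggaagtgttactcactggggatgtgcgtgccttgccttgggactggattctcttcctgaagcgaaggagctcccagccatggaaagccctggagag
SOS1: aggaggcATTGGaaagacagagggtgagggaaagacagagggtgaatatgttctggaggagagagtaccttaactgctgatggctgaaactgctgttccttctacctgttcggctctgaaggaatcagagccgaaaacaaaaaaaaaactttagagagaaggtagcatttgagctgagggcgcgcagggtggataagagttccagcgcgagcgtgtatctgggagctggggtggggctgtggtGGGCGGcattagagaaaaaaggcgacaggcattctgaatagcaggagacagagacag
RAPGEF2: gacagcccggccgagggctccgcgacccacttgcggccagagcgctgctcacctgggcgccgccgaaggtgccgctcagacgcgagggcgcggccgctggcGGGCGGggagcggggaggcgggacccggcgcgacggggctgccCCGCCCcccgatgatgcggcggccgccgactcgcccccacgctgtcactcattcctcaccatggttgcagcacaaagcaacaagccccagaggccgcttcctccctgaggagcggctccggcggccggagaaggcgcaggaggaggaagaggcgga

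The motifs were the GC box GGGCGG, the ETS site CCGGAA, the AP-1 site TGANTCA, the CRE TGACGTCA, the E-box CACGTG, the CCAAT box and the TATA box TATAAA. ETS factors and AP-1 are the best known transcription factors downstream of the RAS and ERK pathway. None of the 4 windows held the ETS site CCGGAA, found in 17.2% of 35116 promoters of this length, or the AP-1 site, found in 7.71%. Only this form of the ETS site was searched. The shorter GGAA, which occurs in all 4 windows when both strands are read, was not counted, so ETS sites of other forms may be present. The other SOS1 start in the table, at chr2:39121002-39121301, held 1 match to CCGGAA, at -45 from the start. All 4 held the GC box, which 45% of promoters hold, with 3 matches in RASSF1, 1 in RIN1, 1 in SOS1 and 2 in RAPGEF2. A CCAAT box, present in 34.6% of promoters, was found in RASSF1 and SOS1. In the 4 windows shown, base composition did not follow the direction of the ratio. G and C made up 69.7% of the window in RASSF1 and 62.7% in RIN1, which were higher in the K-ras line. They made up 51% in SOS1 and 75% in RAPGEF2, which were lower. The same windows held 33 CpG dinucleotides in RASSF1, 8 in RIN1, 9 in SOS1 and 38 in RAPGEF2, and the median over all promoters was 14. The other starts differed, with 65.7% G and C and 19 CpG in SOS1. In RAPGEF2 they had 41.7% and 42.7% G and C, with 2 and 3 CpG. None of these other starts held the GC box, so these comparisons depend on the start taken. RASSF1 is known for CpG methylation in many tumours at the start of its longer transcript, which is not the start shown, and an expression array does not measure methylation. Affymetrix probe sets of this type target mostly the 3′ part of a transcript, so the array does not say which of several starts was used.

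RASSF1 encodes scaffold proteins with a RAS-association domain that bind the MST kinases of the Hippo pathway. Its probe set 204346_s_at had a signal of 107 on the K-ras array and 39.4 on the parental array. The K-ras signal was above the floor and the parental signal below it, so RASSF1 was at least 2.28-fold higher (log2 ratio at least 1.19). The 2 signals themselves gave a log2 ratio of 1.44. RIN1 encodes an effector that binds active RAS, acts as an exchange factor for RAB5 in endocytosis and stimulates ABL kinases. Its probe set 205211_s_at had a signal of 278 on the K-ras array and 138 on the parental array. Both were well above the floor, and the ratio of 2.01-fold lay at the threshold, at a log2 ratio of 1.01. Under median centring the log2 ratio of RIN1 was 0.91.

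**Figure D1:**
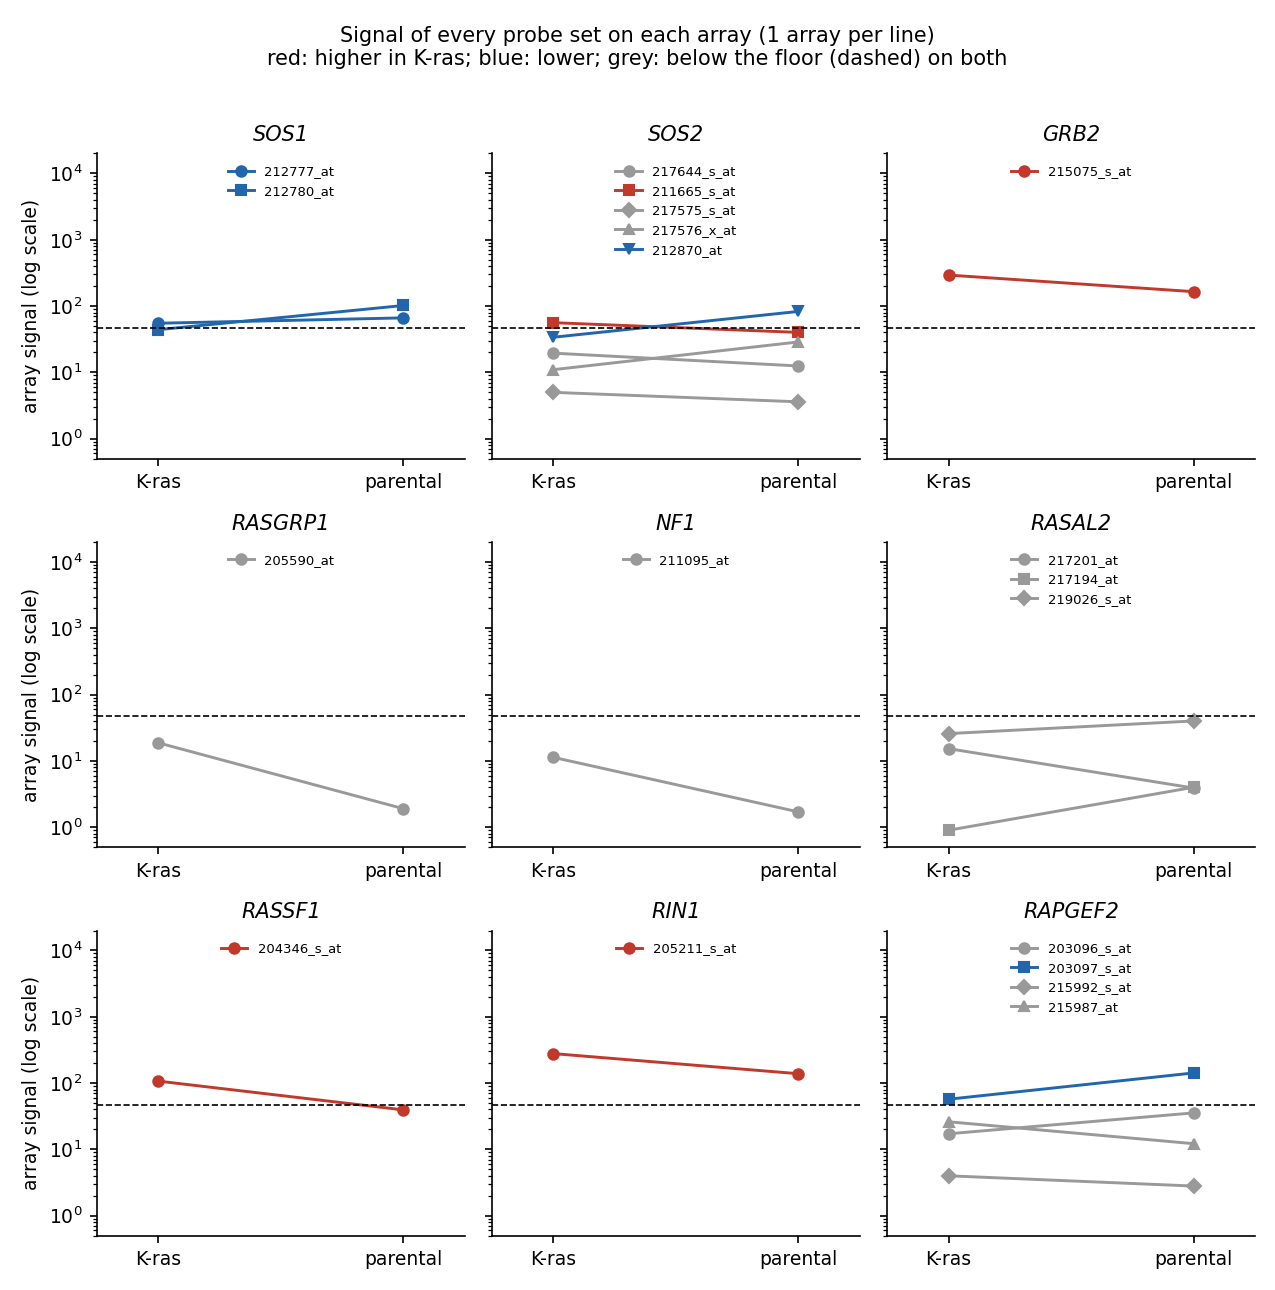
Signal of each of the 19 probe sets (vertical axis, array signal on a log scale) on the K-ras and the parental array, 1 panel per gene and 1 line per probe set. Among the 8 measured probe sets, those of RASSF1, RIN1 and GRB2 and SOS2 211665_s_at slope down toward the parental array, and the other 4 slope up. The 11 grey probe sets slope either way and stay under the floor of 46.9 (dashed) on both arrays.

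On the route from receptors to RAS, 1 of the 5 measured probe sets passed 2-fold, a SOS1 probe set that was lower in the K-ras line. Over all measured probe sets 10.1% were higher and 14.7% lower, and 5 probe sets are too few to read a difference from those shares. GRB2, which links phosphorylated receptors to SOS, had a signal of 294 on the K-ras array and 165 on the parental array in its 1 probe set, 215075_s_at. This is 1.78-fold higher (log2 ratio 0.83), under the threshold, but 2-fold was passed with scaling on the maintenance probe sets, at a log2 ratio of 1.03. SOS1, the exchange factor that GRB2 carries to the membrane, was measured by 2 probe sets. Probe set 212780_at had a signal of 44.1 on the K-ras array and 102 on the parental array, so the K-ras level was at least 2.18-fold lower (log2 ratio -1.12 or below). Probe set 212777_at had 55.1 on the K-ras array and 66.4 on the parental array, a log2 ratio of -0.27. Probe set 212780_at thus passed 2-fold as lower, and 212777_at did not pass and stood at -0.07 with scaling on the maintenance probe sets. With that scaling 212780_at did not pass either.

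SOS2, the close relative of SOS1, had 5 probe sets, of which 2 were measured, each on 1 array. Probe set 212870_at had a signal of 33.9 on the K-ras array and 83.1 on the parental array, a bound of at least 1.77-fold lower. Probe set 211665_s_at had 56.2 on the K-ras array and 40.1 on the parental array, at least 1.20-fold higher. The measured probe sets of SOS2 thus pointed in opposite directions, and neither bound reached 2-fold. With the floor at the 30th percentile of signals, 212870_at had a log2 ratio of -1.29 and passed 2-fold. The other 3 SOS2 probe sets were below the floor on both arrays. Probe set 217644_s_at had 19.5 on the K-ras array and 12.5 on the parental array. Probe set 217576_x_at, which may pick up related transcripts, had 11.0 on the K-ras array and 28.8 on the parental array. Probe set 217575_s_at had 5.0 on the K-ras array and 3.6 on the parental array.

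RASGRP1, an exchange factor opened by diacylglycerol and calcium and best known in T cells, was not measured in either line. Its probe set 205590_at had a signal of 18.7 on the K-ras array and 1.9 on the parental array, both below the floor, so no ratio is given. Of 8 leukocyte markers with a probe set, 4 were at or above the floor on the K-ras array and 0 on the parental array. The floor is the median of the K-ras array, so about 50% of all non-control probe sets reach it there, and fewer on the parental array. They are thus no larger a share than that on the K-ras array. The 8 leukocyte markers had signals of 4.4 to 78.2 on the K-ras array, with a sum of 305, and 4.6 to 43.5 on the parental array, with a sum of 165. The common leukocyte antigen PTPRC had a signal of 8.8 on the K-ras array and 18.2 on the parental array. LCK and CD14 were also lower on the K-ras array, and CD3D, CD3E, CD2, MS4A1 and ITGAM were higher there. CD3D, CD3E and CD2 had 47.8, 78.2 and 51.8 on the K-ras array and 4.6, 11.2 and 26.1 on the parental array. No leukocyte marker was at 0 on either array. The summed signal of fibroblast markers was likewise higher on the K-ras array, at 371 against 275 on the parental array. So were those of endothelium (122 against 58.4), acinar cells (132 against 106) and islet cells (69.2 against 32.8). That of the epithelial markers was lower, at 16726 on the K-ras array and 17827 on the parental array. Low signals tended to be higher on the K-ras array, where the 25th percentile was 15.0, against 11.4 on the parental array. Among all analysed probe sets below the floor on both arrays, 66.9% had the higher signal on the K-ras array. Neither the part of this offset in the sums nor that of any marker list in the RASGRP1 signal was tested.

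No GTPase-activating protein of the list was measured. NF1 encodes neurofibromin, which turns RAS off and is lost in neurofibromatosis. Its 1 probe set with no second name, 211095_at, had a signal of 11.3 on the K-ras array and 1.7 on the parental array. RASAL2, a RAS GTPase-activating protein, had 3 probe sets. Probe set 219026_s_at came nearest to the floor, with 25.8 on the K-ras array and 40.0 on the parental array. Probe set 217201_at had 15.3 on the K-ras array and 3.9 on the parental array, and 217194_at had 0.90 on the K-ras array and 4.0 on the parental array. Below the floor such signals have no order, so no direction is given for NF1 or RASAL2.

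RAPGEF2 encodes an exchange factor for RAP1 and RAP2, small GTPases related to RAS that act in cell adhesion. Its probe set 203097_s_at had a signal of 57.1 on the K-ras array and 142 on the parental array, 2.49-fold lower in the K-ras line (log2 ratio -1.32). This was the lowest log2 ratio among the 8 measured probe sets, and the K-ras signal stood just above the floor. With the floor at the 70th percentile of signals the ratio shrank to a bound of -0.22. The other 3 RAPGEF2 probe sets were below the floor on both arrays, with 17.2 on the K-ras array and 35.5 on the parental array for 203096_s_at, 26.1 on the K-ras array and 12.2 on the parental array for 215987_at, and 4.0 on the K-ras array and 2.8 on the parental array for 215992_s_at.

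Of the 11 unmeasured probe sets, 7 had the higher signal on the K-ras array and 4 on the parental array. Among all probe sets with 1 symbol below the floor on both arrays, 66.9% had the higher signal on the K-ras array. The share of probe sets not measured was 57.9% for these genes, against 41.9% of all 19065 non-control probe sets with 1 symbol.

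**Figure D2:**
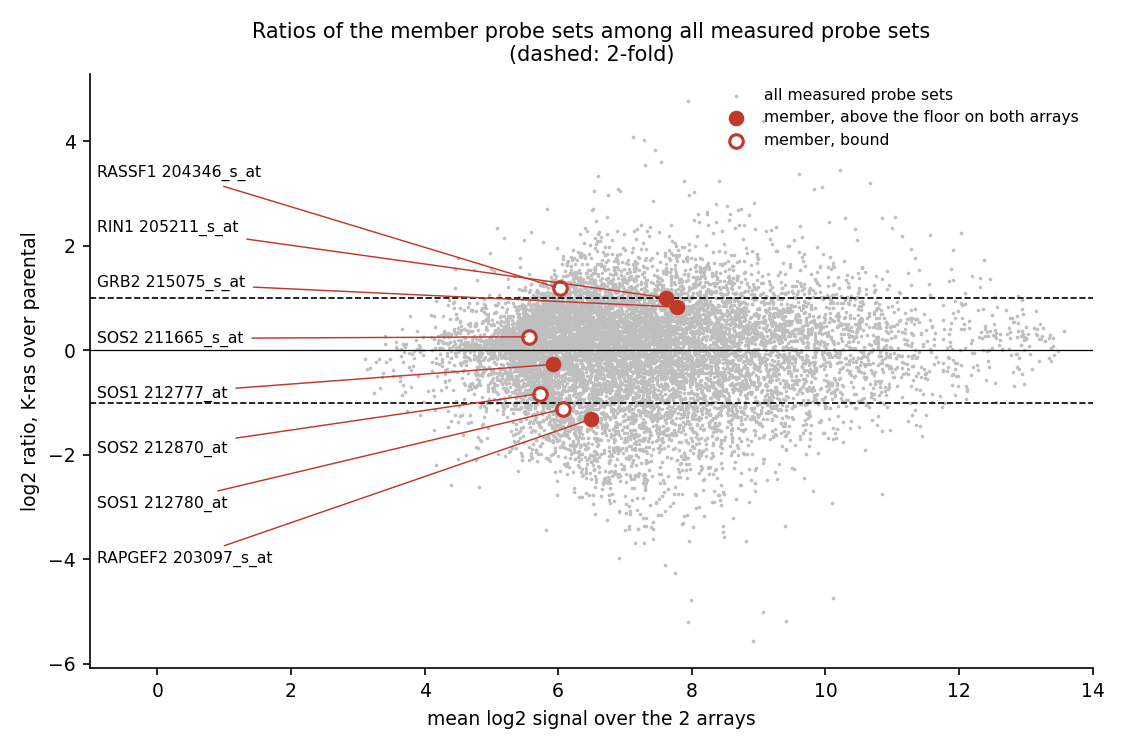
Log2 ratio of K-ras over parental (vertical axis) against the mean log2 signal over the 2 arrays (horizontal axis) for 11084 measured probe sets in grey and the 8 of these genes in red, open where the ratio is a bound. The 8 lie within the grey cloud, between -1.32 and 1.19, and 4 are past the dashed 2-fold lines.

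The size of these ratios was set against the spread between probe sets of the same gene, which stands in here for repeat measurements. It was taken over the 1671 genes that had several probe sets above the floor in both lines, and the pooled SD within a gene was 0.46 on the log2 scale. This spread can hold differences between transcripts of a gene as well as measurement error, which were not separated, and it says nothing of variation between cultures. The log2 ratio of RAPGEF2 was 2.88 times this value, the bound of RASSF1 2.61 times, the bound of SOS1 212780_at 2.46 times and RIN1 2.21 times. GRB2 stood at 1.82 times, and SOS1 212777_at at 0.589 times. The bounds of RASSF1 and SOS1 212780_at involve a signal below the floor, unlike the probe sets behind this SD. It was pooled over all signal levels, and whether it holds near the floor was not tested. Disagreement as in SOS2 was common: of 2333 genes with 2 or more measured probe sets, 25.3% had probe sets of opposite sign. Disagreement in size as in SOS1 was the usual case: of 968 such genes with a probe set past 2-fold, 68.3% had another that was not past it in that direction.

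Signal level bears on how often 2-fold was passed. Measured probe sets were divided into 10 classes of equal size by mean log2 signal. In the class that holds RASSF1 and both SOS1 probe sets, 9.21% of probe sets passed 2-fold upward and 17.8% downward. In the class of RAPGEF2 the shares were 13.8% higher and 18.2% lower, and in that of RIN1 and GRB2 12% higher and 17% lower. In the class of the SOS2 probe sets 2.80% were higher and 7.76% lower. By rank among all measured ratios, RASSF1 stood at percentile 93.5, RIN1 at 90.0 and GRB2 at 85.4, while RAPGEF2 stood at 9.16, SOS1 212780_at at 12.2 and SOS2 212870_at at 18.1.

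The genomic length of each gene was set beside its ratio. RIN1 spans 6.53 kb and RASSF1 11.0 kb in GRCh38.p14, and these 2 shortest genes of the list were the ones that passed 2-fold upward. GRB2 spans 87.6 kb, SOS2 115 kb, SOS1 143 kb and RAPGEF2 257 kb, and the 2 genes at least 2-fold lower were the longest of those measured. GRB2 and SOS2 211665_s_at had positive log2 ratios in genes longer than RASSF1. The unmeasured RASGRP1, NF1 and RASAL2 span 76.7, 283 and 385 kb. In 10 classes of equal size by gene span, the median log2 ratio of all measured probe sets was 0.39 in the shortest and -0.10 in the longest. In the class of RIN1, with spans of 5.82 to 10.8 kb, 12.9% passed 2-fold upward and 7.19% downward. In the class of SOS1 and SOS2, with spans of 90.3 to 150 kb, 4.33% were higher and 21.6% lower. After subtraction of the median of its class, RAPGEF2 had a log2 ratio of -1.22, GRB2 0.97, SOS1 212780_at -0.96, RASSF1 0.89 and RIN1 0.72, so RAPGEF2 alone of the 8 stayed past 2-fold. The part of gene length in these ratios was not tested.

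**Figure D3:**
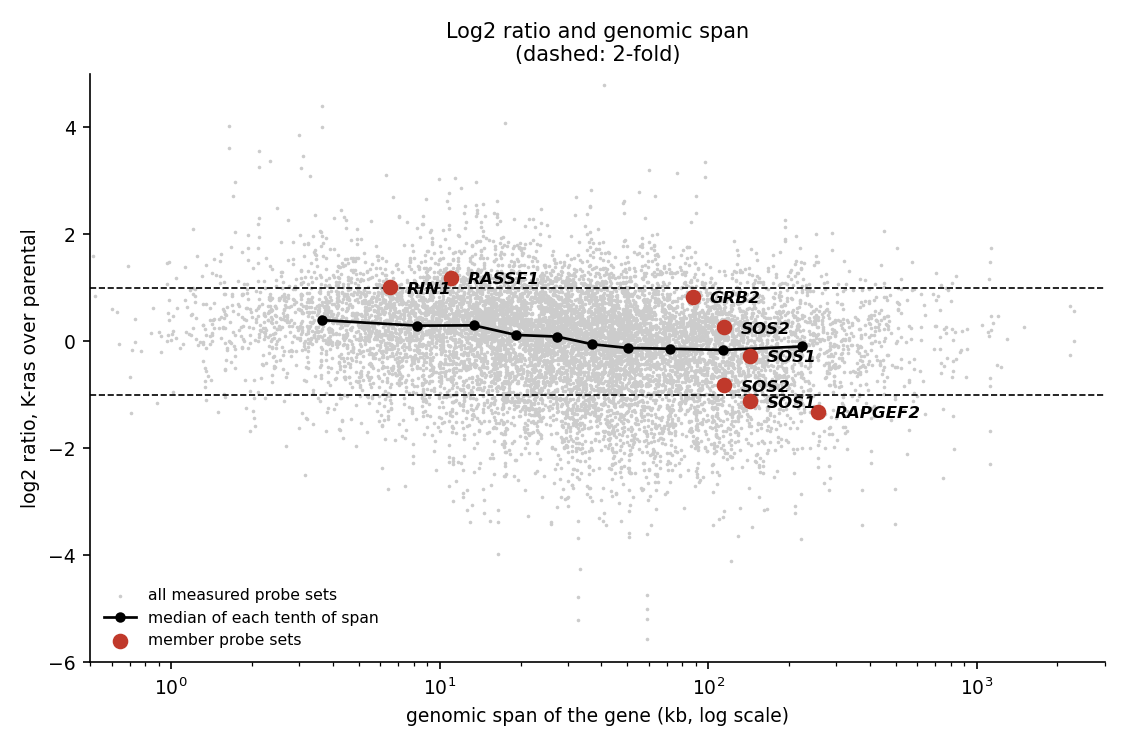
Log2 ratio of K-ras over parental (vertical axis) against the genomic span of the gene in kb (horizontal axis, log scale) for measured probe sets in grey, with the median of each of 10 classes of span in black and the 8 probe sets of these genes in red. The black line lies at 0.39 in the shortest class and at -0.10 in the longest, and RIN1 and RASSF1 lie at the short, higher side while SOS1 and RAPGEF2 lie at the long, lower side; GRB2 and 1 of the 2 SOS2 probe sets lie above 0 in between.

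Around these genes, 6 lists of other RAS pathway genes were read at gene level, with the probe set of highest mean log2 signal standing for a gene. Of 110 listed genes 88 had a probe set and 63 were measured, of which 7 (11.1%) passed 2-fold upward and 10 (15.9%) downward. Among all 7693 measured genes these shares were 9.97% and 14.4%, so the lists as a whole were near the background. The RAS-like GTPases had 1 higher and 1 lower among 13 measured, with a median log2 ratio of 0.30. RRAS, a RAS relative that acts on integrins, had a signal of 596 on the K-ras array and 236 on the parental array, 2.52-fold higher. RAP1B, a RAP protein that RAPGEF2 can load, had 419 on the K-ras array and 1024 on the parental array, 2.45-fold lower. HRAS and RAP2B had log2 ratios of 0.72 and 0.58. RAP1A, nearly identical to RAP1B in protein, had a log2 ratio of -0.10.

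The adaptors between receptors and SOS had 4 higher and 3 lower among 14 measured, with a median of 0.45. Among all measured genes 9.97% were higher and 14.4% lower, and 14 genes are too few to read a difference from those shares. GRB7, an adaptor of ERBB2 that is no close relative of GRB2 in spite of its name, was 3.53-fold higher, at 365 on the K-ras array and 103 on the parental array. The other higher members, named after their values were seen, were GRB10 (2.52-fold), the ubiquitin ligase CBLB (at least 2.42-fold) and the insulin receptor substrate IRS2 (2.31-fold). SHOC2, a scaffold that helps RAS to activate RAF, was 3.63-fold lower, with 62.4 on the K-ras array and 226 on the parental array. IRS1, a relative of IRS2, had a log2 ratio of -1.59. PTPN11, the phosphatase SHP2 that is needed for full RAS activation by many receptors, had 345 on the K-ras array and 1003 on the parental array, 2.91-fold lower, and its other measured probe sets gave log2 ratios of -1.12 to -0.46. SHC1, which links receptors to GRB2, gave 0.44 on the log2 scale in one probe set and 1.001 in another.

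**Figure D4:**
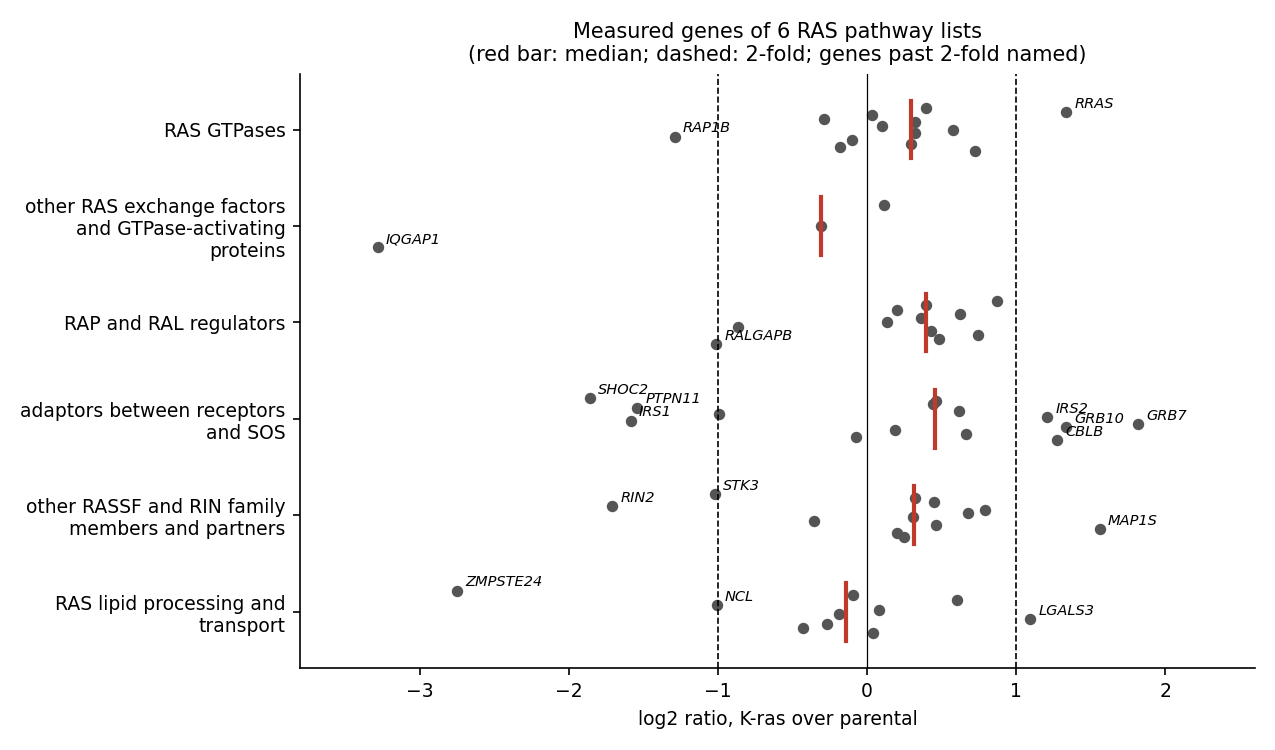
Log2 ratio of K-ras over parental (horizontal axis) of each measured gene in 6 lists of RAS pathway genes (rows), with the median as a red bar and the 2-fold lines dashed. Most genes lie between the dashed lines, 7 of 63 lie beyond the right line and 10 beyond the left.

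The list of other RAS exchange factors and GTPase-activating proteins, which also holds related RAS regulators, had 3 measured genes of 9 with a probe set. The GTPase-activating proteins RASA2, RASA3 and RASAL1, the exchange factors RASGRP2 and RASGRP3 and the RASSF family member RASSF9 were below the floor on both arrays. RASGRF1, the 1 exchange factor measured, had a signal of 52.3 on the K-ras array and 48.4 on the parental array, a log2 ratio of 0.11. IQGAP1, a scaffold with a RAS GTPase-activating-like domain that does not speed RAS hydrolysis, had a signal of 54.9 on the K-ras array and 534 on the parental array, 9.72-fold lower, and its other 2 measured probe sets gave log2 ratios of -2.16 and -0.67. LZTR1, which marks RAS proteins for degradation, had a log2 ratio of -0.31. Among RAP and RAL regulators, 0 of 11 measured were at least 2-fold higher and 1 lower, with a median of 0.39. RALGAPB, a subunit of the RAL GTPase-activating complex, was 2.02-fold lower, with a second probe set at a log2 ratio of -0.41. SIPA1L3 and RAP1GAP, of the RAP GTPase-activating proteins, had log2 ratios of 0.87 and 0.74, and RAP1GDS1 had -0.87 on one probe set and 0.17 on another.

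Relatives and partners of RASSF1 and RIN1 had 1 higher and 2 lower among 12 measured, with a median of 0.31. RIN2, a relative of RIN1, had a signal of 163 on the K-ras array and 533 on the parental array, 3.27-fold lower, while RIN1 was 2.01-fold higher. RIN3 had a log2 ratio of 0.45. RASSF7 had a log2 ratio of 0.79, and RASSF2, RASSF4 and RASSF8 were below the floor on both arrays. MAP1S, a microtubule-associated protein that binds RASSF1, was 2.95-fold higher. STK3, one of the MST kinases that bind RASSF1, was 2.03-fold lower. The genes for RAS lipid processing and transport had 1 higher and 2 lower among 10 measured, with a median of -0.14, which scaling on the maintenance probe sets turned to 0.06. ZMPSTE24, a membrane protease that trims prenylated proteins, was 6.72-fold lower, the nucleolar protein NCL 2.01-fold lower, and LGALS3, a galectin, 2.13-fold higher. The enzyme genes FNTA, RCE1 and ICMT of this list had log2 ratios of 0.04, -0.09 and -0.27. PDE6D, which carries farnesylated RAS through the cytosol, had a log2 ratio of 0.60 on a probe set ending in _x_at, which may pick up related transcripts, and -0.23 on another. The medians of the other 5 lists kept their sign under each of 5 other scalings. The median of the RAP and RAL regulators turned to -0.12, over 4 measured genes, when the floor was the 70th percentile, and after subtraction of the span class median that of the RAS-like GTPases was -0.0018.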

How the data were processed

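The authors deposited 1 linear intensity per probe set and array. Per the labels' protocols, total RNA from a phenol/chloroform extraction was purified on columns and made into cRNA by Affymetrix procedures, and no software is named for the step to intensities. The mean after trimming 2% at each end was 150.06 in both deposited columns. Each column was brought to the average of these means. Probe sets were named through the array's annotation, with 19071 paired with 1 symbol, 1043 with several and 2169 unnamed here. Control probe sets (68) were left out. The log2 ratio is K-ras over parental, with signals below the floor of 46.9 raised to it. With 1 array per line no test was made, and precision is limited by the number of arrays. Gene spans come from GRCh38.p14. Named genes are all members, and up to 4 genes of each list with the largest ratios; further genes were named after their values were seen. The members, lists and settings were chosen with earlier results of these data known. The procedure was tested on simulated arrays, with changes larger than those of these genes planted in probe sets well above the floor. It does not show how ratios near the floor or near 2-fold are recovered. Some items are not reported here. Alternatives changed the scaling, floor, probe sets, span trend and threshold. Python 3.11.15, numpy 2.4.6, pandas 2.3.3, statsmodels 0.14.6 and matplotlib 3.10.9 were used.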

Additional observations from a re-analysis of the deposited data

How the results depend on the processing

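No paired analysis was possible because each line has 1 array and the labels give no replicate numbers; for the same reason no array could be left out. Of the 13 alternative settings, the values as deposited, quantile normalization and the loess curve kept 2 member probe sets higher and 2 lower. Median centring left 1 higher, and scaling on the maintenance probe sets left 1 lower. With the floor at the 30th percentile, 12 probe sets were measured, with 2 higher, 3 lower and a median log2 ratio of -0.40, against 13.6% higher and 15% lower over all probe sets measured. With it at the 70th percentile, 3 were measured, with 1 higher, 0 lower and a median of 0.83, against 8.75% and 12.4%. With no floor all 19 counted, with 6 higher, 6 lower and a median of 0.49, against 21.2%, 15.9% and a median of 0.25 over all probe sets. The floor as a pseudocount, and a threshold of 3-fold, each left 0 higher and 0 lower, against 6.27% and 11.2% with the pseudocount and 2.59% and 6.07% at 3-fold. Without probe sets ending in _x_at or _s_at, 3 were measured, with 0 higher, 1 lower and a median of -0.83, against 10% and 15.2%. After subtraction of the span class median, 0 were higher and 1 lower, against 8.57% and 15.3%. The median log2 ratio of the 8 was 0.16 with that subtraction and 0.05 with the pseudocount. By construction the higher floor and the probe set setting measure fewer probe sets, the lower floor and no floor more, the pseudocount makes ratios smaller, and the 3-fold threshold leaves them as they were; for the scalings and the span trend the cause was not tested. All 8 ratios kept their sign under every setting in which they were measured, with GRB2 between 0.68 and 1.03 and RIN1 between 0.72 and 1.20. A change of floor, the pseudocount, the choice of probe sets and the threshold cannot turn a sign, and the values as deposited were almost the main ones. Only the other scalings and the span trend could have turned one. With 1 probe set per gene for SOS2 the log2 ratio was -0.83, and as a median over its 2 measured probe sets -0.28. Of 156 list counts under alternatives, 38 moved, either by more than 1.5 times or to or from 0. Of these, 35 were counts of 2 or fewer genes in the main setting. Limits are the 1 array per line and low signal, with 11 of 19 probe sets under the floor on both arrays.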
